A study of Mus musculus with 9 samples.

Results

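Growth factors that act through receptor tyrosine kinases switch on RAS, RAF, MEK and ERK, the mitogen-activated protein kinase (MAPK) cascade, and active ERK in turn raises the transcription of a small group of genes. Several of these genes encode inhibitors that damp the same cascade, and others encode transcription factors that carry its output, so their transcript levels are often read as a record of recent ERK signalling. In the developing kidney FGF signals keep SIX2 nephron progenitors alive and undifferentiated, and GDNF made by these progenitors signals to the ureteric bud. The genes described here were 10 such MAPK feedback targets, chosen by name: the sprouty genes *Spry1*, *Spry2* and *Spry4*, the related *Spred1* and *Spred2*, the dual-specificity phosphatases *Dusp4* and *Dusp6*, and the PEA3 ETS transcription factors *Etv1*, *Etv4* and *Etv5*. All 10 were found among the 26858 genes of the deposited table, and all 10 were among the 14990 genes that passed the filter on low counts.

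RNA-seq was performed on SIX2 progenitors sorted by eGFP from E18.5 embryonic kidneys of Six2-Qpc+/- control mice (n = 4 libraries) and Six2-Qpc-/- mutant mice (n = 5 libraries). *Qpc* (*Uqcrq*) encodes a subunit of mitochondrial complex III, and the mutants carried 2 floxed *Qpc* alleles while the controls were heterozygous. Both genotypes carried a bacterial artificial chromosome transgene in which the *Six2* promoter drives Cre fused to eGFP, so the control cells had also been exposed to Cre and were not wild type. The labels do not say whether libraries came from separate animals or litters or whether kidneys were pooled, and p-values therefore measure only the spread between these libraries. The question addressed by these genes is whether the transcriptional readout of growth factor signalling through ERK differed between the genotypes.

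Library totals ranged from 21040536 to 23986458 reads. Values are CPM, counts per 1000000 counts of the library size after TMM normalization, and genotypes were compared by the edgeR quasi-likelihood test with Benjamini-Hochberg adjustment over all tested genes and a threshold of 0.05. *Uqcrq* (chromosome 11, 53427922 to 53430831) had 1972 to 2511 reads in each control library and 386 to 637 in each mutant library, and its fitted log2 fold change, mutant against control, was −2.14 with a standard error (SE) of 0.16 (adjusted p = 2.09e-05 by edgeR). Over all tested genes, 2225 passed the threshold (14.8%), 1172 with a higher level in mutant cells (7.82%) and 1053 with a lower level (7.02%). That number was 1354, 1272 and 1046 without control 71, 72 and 73, and 1336 without mutant 78. Summed progenitor markers were similar in range, 2216 to 2649 CPM in control and 2217 to 2636 CPM in mutant libraries. Among these 10 markers *Traf1* was called higher (log2 fold change 0.64, adjusted p = 0.0243, edgeR) and *Tmem100* lower (−0.98, adjusted p = 0.0124). *Six2* (0.30) and *Crym* (−0.42) were not called. The 9 ureteric bud markers summed to 64.9 to 94.2 CPM in control and 55.6 to 114 CPM in mutant libraries. Of these, *Ret*, *Wnt9b*, *Gata3* and *Aqp2* were below 1 CPM in each of the 9 libraries. The 5 tested had fitted log2 fold changes from −0.85 to 2.88, none was called, and 3 had an unadjusted p under 0.05 (4709 of all 14990 tested genes). The sum of stroma markers was higher in every mutant library (278 to 720 CPM, highest in mutants 75 and 74) than in every control library (129 to 220 CPM). Myeloid markers summed to 2.47 to 12.6 CPM in control and 10.3 to 136 CPM in mutant libraries. Of the markers tested, 5 of 9 for stroma and 2 of 7 for myeloid cells were called higher in mutant cells (7.82% of all tested genes). For stroma 8 of the 9 had a fitted value above 0, and *Pdgfrb* was below it (log2 fold change −0.51, adjusted p = 0.315, edgeR). All 7 myeloid markers had a fitted value above 0 and an unadjusted p under 0.05 (16.3% of all tested genes). Their median log2 fold change was 3.49. No marker of either list was at 0 in every library. Reads on Y-linked genes were present in controls 72 and 73 and in mutant 79 and stayed below 1 CPM in the other 6 libraries. In sorted cells sequenced in bulk, fewer cells of one type and less RNA per cell cannot be told apart. The paper reports that eGFP-positive cells were a smaller part of mutant than of control kidney cells. It does not fully exclude that differentiating control cells with low eGFP were sorted as well. Whether either bears on these marker sums was not tested.

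Of the 10 feedback genes, *Dusp4* was higher in mutant cells and passed the threshold, and the other 9 did not pass it in either direction. Thus 10% of the feedback genes were called, beside 14.8% of all tested genes. Fitted values were above 0 for 8 of the 10, with a median log2 fold change of 0.20, whereas 49.2% of all tested genes had a fitted value above 0 and their median was −0.01. An unadjusted p under 0.05 with a higher level in mutant cells was found for 3 (*Dusp4*, *Spry2* and *Spry4*), beside 16.3% of all tested genes. The libraries of the genotypes did not overlap for 3 (*Dusp4*, *Spry2* and *Spred1*), each higher in mutant cells, and 15.2% of all tested genes had no overlap, 7.5% with the mutant higher. None of the 10 was called lower.

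The number of feedback genes called depended on the test. DESeq2 and limma-voom with sample quality weights each called 3, *Spry2*, *Spry4* and *Dusp4*, and they called 19% and 32.5% of all genes they tested. Without mutant 74 the edgeR test called *Spry4* and *Dusp4*, beside 21.2% of all genes. *Dusp4* and *Spry4* were called under each of these 3 settings, and *Spry2* by DESeq2 and limma-voom.

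**Figure D1:**
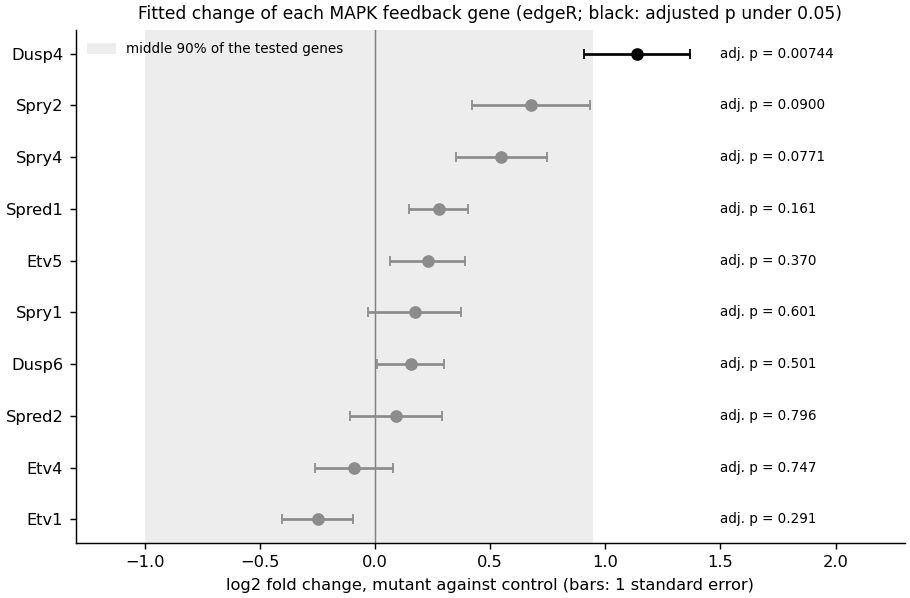
Fitted log2 fold change (mutant against control) of each MAPK feedback gene on the horizontal axis, with bars of 1 standard error, the adjusted p of the edgeR test, and in grey the band that holds the middle 90% of all tested genes (−0.996 to 0.942). *Dusp4* (1.14) is the only point in black, past the threshold and outside the band, and *Etv1* and *Etv4* are the 2 genes with fitted values below 0.

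*Dusp4* (ENSMUSG00000031530, chromosome 8, 34807297 to 34819894) encodes a nuclear phosphatase that removes the activating phosphates from ERK and other MAPKs. Its levels were 13.04, 17.0, 14.5 and 13.04 CPM in controls 71, 72, 73 and 76, and 22.7, 21.1, 44.0, 42.6 and 28.04 CPM in mutants 74, 75, 77, 78 and 79. Each mutant library was thus above each control library, and the mutants themselves fell into a wide range, with 77 and 78 highest. The mean rose from 14.4 ± 1.86 CPM (SD, n = 4) to 31.7 ± 10.9 CPM (SD, n = 5), a 2.20-fold difference on the fitted scale (log2 fold change 1.14, SE 0.23, adjusted p = 0.00744, edgeR). This fitted change was larger than that of 96.2% of all tested genes. The values rest on 306 to 867 reads per library, and the exons of *Dusp4* overlap no exon of another annotated gene.

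The rise of *Dusp4* remained past the threshold with each single library left out, and its log2 fold change ranged from 0.99 (without mutant 77) to 1.25 (without mutant 75). Markers of other cell types differed between the same libraries. The stroma sum was higher in every mutant than in every control and was highest in mutants 75 and 74 (720 and 500 CPM), the mutants with the least *Dusp4*. Without these 2 libraries, whose low *Dusp4* fixes the direction of the shift, the log2 fold change of *Dusp4* was 1.41. The myeloid sum was highest in mutant 77 (136 CPM), which also held the most *Dusp4*, and was 45.6 to 56.6 CPM in mutants 75, 78 and 79. In mutant 74 it was 10.3 CPM, within the control range of 2.47 to 12.6 CPM, while *Dusp4* there (22.7 CPM) was above every control. Markers of committed progenitors and renal vesicles summed to 401 to 757 CPM in control and 278 to 424 CPM in mutant libraries, with mutant 77 above control 76. Among these markers, *Pax8* was at 247 CPM in mutant 77 and 173 CPM in control 76, and *Wnt4* at 73.9 and 113 CPM. The part of these cell types in the result was not tested. In the 6 libraries without Y-linked reads (2 control and 4 mutant) the log2 fold change was 1.32, and *Dusp4* did not pass the threshold there (adjusted p = 0.101, edgeR), where 90 genes of the table did.

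*Dusp6* (ENSMUSG00000019960, chromosome 10, 99263231 to 99267488), the cytoplasmic phosphatase that is selective for ERK and a classic readout of FGF signalling, was the more abundant of the pair. It had 83.6, 88.4, 109 and 110 CPM in controls 71, 72, 73 and 76, and 95.4, 113, 110, 137 and 89.4 CPM in mutants 74, 75, 77, 78 and 79. The genotypes overlapped over most of this range, with the highest level in mutant 78. Its log2 fold change was 0.15 (SE 0.14, adjusted p = 0.501, edgeR), and the interval of 2 SE ran from −0.13 to 0.44.

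Measured per length, as CPM per kilobase of the gene length in the table, *Dusp4* made up 13.2 ± 2.45% (SD, n = 4) of the reads of the pair in control cells and 22.6 ± 4.95% (SD, n = 5) in mutant cells. The shares in the control libraries ranged from 10.7% to 16.4% and those in the mutant libraries from 16.0% to 29.0%, so that the lowest mutant share (75) lay below the highest control share (72). A 2-sided exact permutation test over the 9 libraries gave p = 0.0238, and p = 0.0952 after adjustment over the 8 distinct shares tested in the 4 families.

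*Spry1* (ENSMUSG00000037211, chromosome 3, 37639947 to 37644598) encodes the sprouty protein best known in the kidney, where it restrains the response of the ureteric bud to GDNF. It was the most abundant feedback gene, with 154, 149, 139 and 214 CPM in controls 71, 72, 73 and 76, and 116, 174, 242, 236 and 157 CPM in mutants 74, 75, 77, 78 and 79. Both the lowest and the highest library were mutants, and control 76 lay close to mutants 77 and 78. Its fitted log2 fold change was 0.17 (SE 0.20, adjusted p = 0.601, edgeR), and it was −0.04 with 1 surrogate variable in the fit. A predicted gene model on the opposite strand, *Gm42922*, overlaps 24.4% of the exon bases of *Spry1*, and its reads cannot be separated in libraries that did not keep the strand.

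*Spry2* (ENSMUSG00000022114, chromosome 14, 105891949 to 105896819) was the least abundant, with 37 to 77 reads per library. Its levels were 2.002, 2.14, 1.85 and 1.56 CPM in controls 71, 72, 73 and 76, and 3.28, 2.97, 2.75, 2.71 and 3.40 CPM in mutants 74, 75, 77, 78 and 79. The genotypes did not overlap, with the lowest mutant (78) at 2.71 CPM and the highest control (72) at 2.14 CPM. The means were 1.89 ± 0.249 CPM (SD, n = 4) and 3.02 ± 0.311 CPM (SD, n = 5), and the log2 fold change of 0.68 (SE 0.26) did not pass the edgeR threshold (adjusted p = 0.0900).

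*Spry4* (ENSMUSG00000024427, chromosome 18, 38586268 to 38601268), like *Spry2* an inhibitor that acts on the RAS and RAF steps, had 11.1, 13.8, 16.6 and 16.8 CPM in controls 71, 72, 73 and 76, and 15.2, 26.7, 24.2, 23.0 and 17.5 CPM in mutants 74, 75, 77, 78 and 79. Mutant 74 lay within the control range, and the other 4 mutants lay above it. The log2 fold change was 0.55 (SE 0.20, adjusted p = 0.0771, edgeR). Without mutant 74, whose low *Spry4* fixes the direction of the shift, it was 0.65 and passed the threshold (adjusted p = 0.0260, edgeR). By DESeq2 the adjusted p was 0.0377 for *Spry4* and 0.04996 for *Spry2*, just inside the threshold, and by limma-voom 0.0309 and 0.0479.

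Per length, *Spry1* made up 93.4 ± 1.29% (SD, n = 4) of sprouty reads in control and 91.3 ± 1.70% (SD, n = 5) in mutant cells, so the higher fitted values of *Spry2* and *Spry4* concern the smaller part of sprouty transcripts. *Spry4* held 5.09 ± 1.10% and 6.52 ± 1.17%, and *Spry2* 1.49 ± 0.385% and 2.17 ± 0.835%. None of these shares differed beyond the spread between libraries (exact permutation tests, p = 0.103 for *Spry1*, 0.103 for *Spry4* and 0.198 for *Spry2*). The family together had 63.3 ± 12.3 CPM per kilobase in control and 72.9 ± 19.9 in mutant cells.

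The Spred proteins resemble sproutys and hold neurofibromin at the membrane, where it switches RAS off. *Spred1* (ENSMUSG00000027351, chromosome 2, 117121374 to 117182279) had 43.7, 59.4, 56.6 and 58.8 CPM in controls 71, 72, 73 and 76, and 60.9, 59.5, 72.4, 63.4 and 74.5 CPM in mutants 74, 75, 77, 78 and 79. The genotypes did not overlap, but mutant 75 and control 72 were at nearly the same level. The log2 fold change of 0.28 (SE 0.13) did not pass the threshold (adjusted p = 0.161, edgeR).

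*Spred2* (ENSMUSG00000045671, chromosome 11, 19924375 to 20024026) had 14.3, 20.4, 15.6 and 17.6 CPM in controls 71, 72, 73 and 76, and 24.8, 13.4, 21.1, 16.1 and 15.1 CPM in mutants 74, 75, 77, 78 and 79. Mutants held both the highest and the lowest value. Its fitted log2 fold change was 0.09 (SE 0.20, adjusted p = 0.796, edgeR), and −0.05 without mutant 74, the library with the highest level. *Spred1* made up 70.4 ± 2.003% (SD, n = 4) of Spred reads per length in control and 73.2 ± 5.48% (SD, n = 5) in mutant cells, a difference within the spread between libraries (exact permutation test, p = 0.381).

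**Figure D2:**
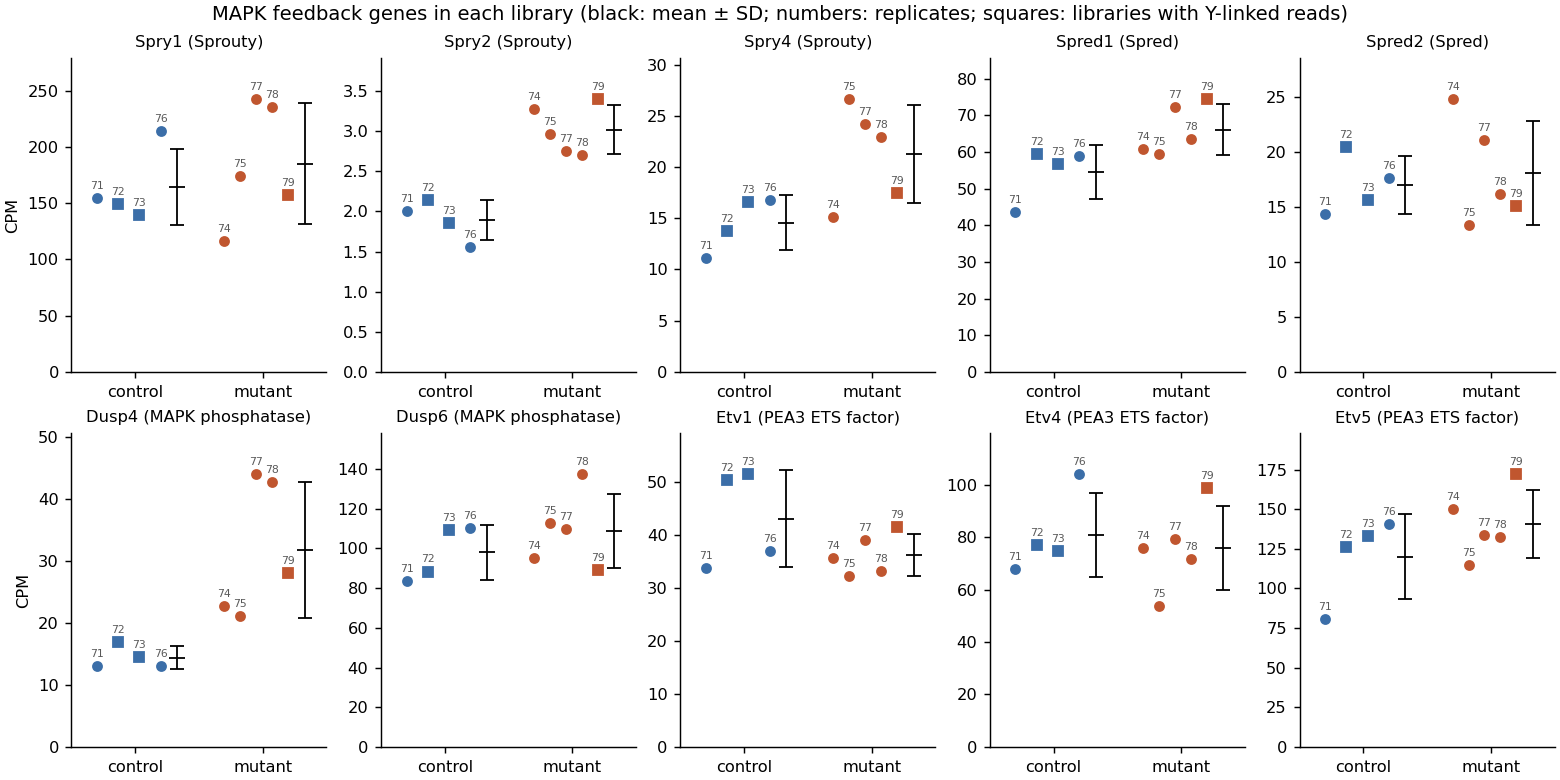
Level of each MAPK feedback gene in CPM (vertical axis, from 0) in every library of the control (blue) and mutant (red) genotypes, with the replicate number at each point, squares for the 3 libraries with Y-linked reads, and the mean ± SD in black beside each group. Mutant points for *Dusp4*, *Spry2* and *Spred1* lie above all control points, and the genotypes overlap in the other 7 panels.

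The PEA3 factors are ETS proteins whose genes FGF and ERK signalling switches on, and *Etv4* and *Etv5* are best known in the kidney downstream of RET in the ureteric bud. *Etv1* (ENSMUSG00000004151, chromosome 12, 38779380 to 38868215) had 33.8, 50.4, 51.6 and 37.0 CPM in controls 71, 72, 73 and 76, and 35.6, 32.2, 39.1, 33.2 and 41.6 CPM in mutants 74, 75, 77, 78 and 79. Within each genotype the libraries with Y-linked reads (controls 72 and 73, mutant 79) held the most *Etv1*. The log2 fold change, −0.25 (SE 0.15, adjusted p = 0.291, edgeR), was −0.11 with Y-linked expression in the fit and −0.02 in the 6 libraries without Y-linked reads.

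*Etv4* (ENSMUSG00000017724, chromosome 11, 101769742 to 101785371) had 67.9, 76.8, 74.7 and 104 CPM in controls 71, 72, 73 and 76, and 75.6, 53.7, 79.3, 71.7 and 98.5 CPM in mutants 74, 75, 77, 78 and 79. One library of each genotype, control 76 and mutant 79, stood high, and mutant 75 stood low. The log2 fold change was −0.09 (SE 0.17, adjusted p = 0.747, edgeR), with an interval of 2 SE from −0.43 to 0.25, and its sign turned without control 76 (0.06) and without mutant 75 (0.01).

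*Etv5* (ENSMUSG00000013089, chromosome 16, 22381309 to 22439719) had 81.0, 126, 133 and 140 CPM in controls 71, 72, 73 and 76, and 150, 115, 134, 132 and 172 CPM in mutants 74, 75, 77, 78 and 79. Control 71 was the lowest library, and the other controls lay among the mutants. The fitted log2 fold change was 0.23 (SE 0.16, adjusted p = 0.370, edgeR), and the interval of 2 SE ran from −0.10 to 0.56.

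Per length, *Etv5* made up 36.0%, 42.0%, 43.7% and 40.5% of PEA3 reads in controls 71, 72, 73 and 76, and 48.6%, 49.2%, 44.4%, 47.0% and 46.0% in mutants 74, 75, 77, 78 and 79. Each mutant share was above each control share, with means of 47.0 ± 1.96% (SD, n = 5) and 40.5 ± 3.29% (SD, n = 4). The 2-sided exact permutation test gave p = 0.00794, the smallest that 4 libraries against 5 allow, and p = 0.0635 after adjustment over the 8 shares, which does not pass 0.05. The shares of *Etv4* (45.7 ± 4.86% in control, 41.7 ± 2.35% in mutant cells) and *Etv1* (13.7 ± 2.71% and 11.3 ± 1.02%) were within the spread between libraries (exact permutation tests, p = 0.175 and 0.119). The family sum was 74.01 ± 12.8 CPM per kilobase in control and 75.5 ± 12.7 in mutant cells.

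**Figure D3:**
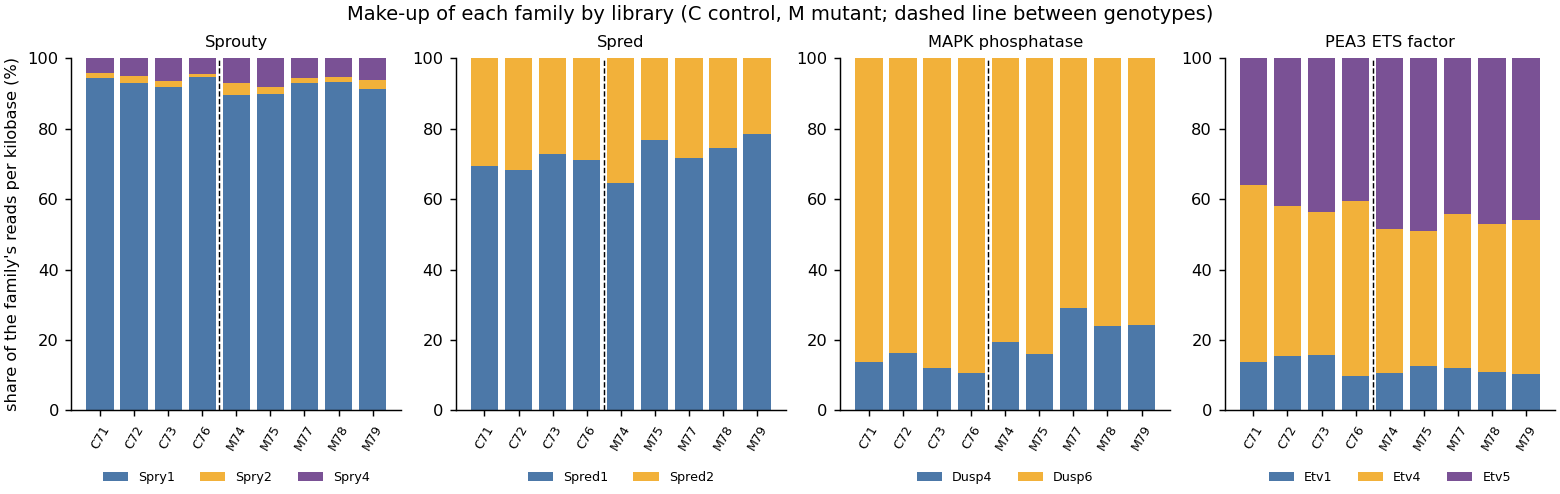
Share of each gene in its family's reads per kilobase (vertical axis, percent) in each library, controls (C) left and mutants (M) right of the dashed line. In the PEA3 panel the *Etv5* part spans 36.0% to 43.7% in controls and 44.4% to 49.2% in mutants, and in the phosphatase panel the *Dusp4* part spans 10.7% to 16.4% and 16.0% to 29.0%.

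Levels of different genes were compared per length. In control cells *Spry1* was highest (59.2 ± 12.2 CPM per kilobase, SD, n = 4) and lay above the range of the next gene. *Dusp6* (35.0 ± 5.00), *Etv4* (33.8 ± 6.64) and *Etv5* (30.2 ± 6.73) followed, and neighbours in this group overlapped. *Etv1* (10.03 ± 2.12) and *Spred1* (9.08 ± 1.23) also overlapped, *Dusp4* (5.25 ± 0.679) lay alone, and *Spred2* (3.82 ± 0.595) overlapped *Spry4* (3.17 ± 0.587). *Spry2* was lowest, at 0.906 ± 0.119 CPM per kilobase, below the range of all others.

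*Dusp4* held the seventh place in this order in control cells and the fifth in mutant cells. There it stood at 11.6 ± 3.99 CPM per kilobase (SD, n = 5), overlapping *Spred1* at 10.99 ± 1.14, and *Etv1* at 8.44 ± 0.913 came below. The ranges of *Spry1* (66.8 ± 19.3), *Dusp6* (39.0 ± 6.68), *Etv5* (35.4 ± 5.41) and *Etv4* (31.6 ± 6.72) overlapped between neighbours, and *Etv5* and *Etv4* had changed places. At the low end *Spry4* (4.64 ± 1.05) and *Spred2* (4.07 ± 1.06) had also changed places, with overlapping ranges, and *Spry2* was again lowest at 1.45 ± 0.149.

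Control 71 was the lowest control for 8 of the 10 genes, all but *Spry1* and *Spry2*, while control 76 was the highest for 5 and control 72 for 4. Among the mutants, 75 was the lowest for 6 and 79 the highest for 5. Single genes went the other way, with *Spry2* lowest in control 76, *Spry4* highest in mutant 75 and *Dusp6* lowest in mutant 79. The mean of the centred log2 CPM of the 10 genes was −0.38 in control 71, between −0.10 and −0.04 in the other controls, between −0.04 and 0.01 in mutants 75 and 74, and 0.28, 0.20 and 0.14 in mutants 77, 78 and 79. Mutant 75 (−0.04) and control 76 (−0.04) were at nearly the same mean. Of 9340 other genes at 10 CPM or more on average, *Nufip2* (Pearson r = 0.98, Spearman rho = 0.93), *Tollip* (0.98 and 0.93) and *Pdzd8* (0.97 and 0.95) followed this mean most closely over the 9 libraries. They were picked as the highest of that many genes, which share libraries and depth, and no p is given.

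**Figure D4:**
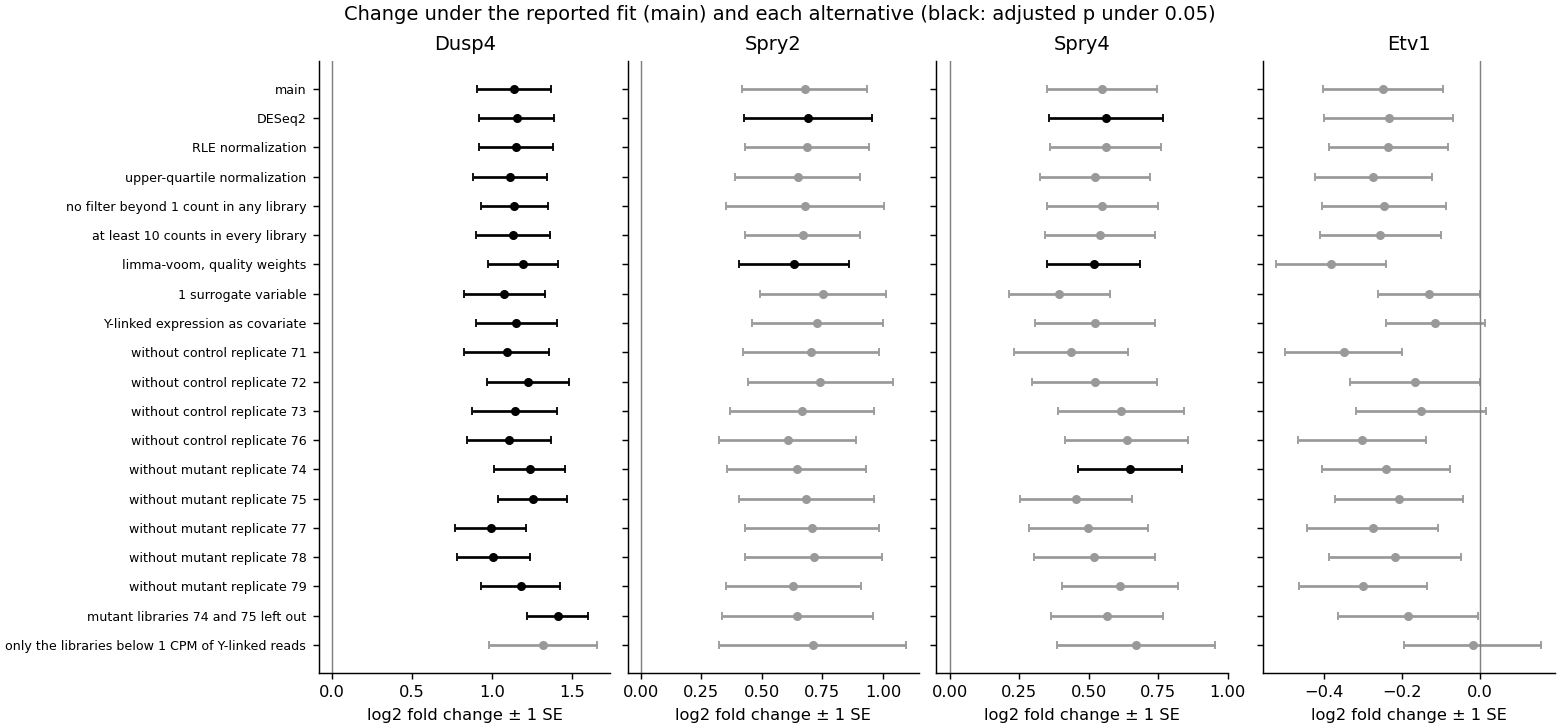
Log2 fold change (mutant against control) with bars of 1 standard error for *Dusp4*, *Spry2*, *Spry4* and *Etv1* under the reported edgeR fit and each other setting (black points: adjusted p under 0.05). *Dusp4* is black in all settings but the 6 libraries without Y-linked reads, *Spry2* in 2, *Spry4* in 3 and *Etv1* in none.

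The rest of the pathway was described from 9 further lists. Beside their counts at an unadjusted p under 0.05, taken in either direction, stand 4709 of all 14990 tested genes. Shares of all genes called without 1 library were 8.88%, 8.36%, 6.85% and 14.9% for controls 71, 72, 73 and 76. They were 21.2%, 11%, 10.5%, 9% and 11.7% for mutants 74, 75, 77, 78 and 79, and DESeq2 and limma-voom called 19% and 32.5%. Counts under these settings stand beside those shares. Among 19 genes of the core cascade and its scaffolds, 5 were called higher and none lower (7.82% and 7.02% of all tested genes), with a median log2 fold change of 0.21. Of these, *Braf*, the RAF kinase that activates MEK, rose from 37.8 ± 4.27 to 54.7 ± 4.44 CPM (log2 fold change 0.53, adjusted p = 0.0133, edgeR), and *Nras*, a RAS GTPase, from 122 ± 8.68 to 169 ± 16.0 CPM (0.47, adjusted p = 0.0137), both without overlap between genotypes. *Lamtor3*, a scaffold that brings MEK and ERK together on endosomes (0.61, adjusted p = 0.0380), and the RAS-related *Rap1b* (0.60, adjusted p = 0.0378) also rose, with overlapping libraries. The other gene called was *Mapk3*, which encodes ERK1 (0.42, adjusted p = 0.0350, edgeR). Its genotypes did not overlap, but control 76 (127.6 CPM) and mutant 77 (128.0 CPM) were nearly level. The count was 2 without control 71, 72 or 73 or without mutant 75 or 78, 3 without mutant 77, 8 without mutant 74, and 9 by limma-voom.

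Of 8 ERK effector kinases, 2 rose and 1 fell, beside 14.8% of all tested genes called in either direction. All 3 encode RSK kinases, which ERK activates. *Rps6ka2* had a log2 fold change of 0.71 (adjusted p = 0.0217), *Rps6ka3* of 0.67 (adjusted p = 0.0231) and *Rps6ka1* of −0.52 (adjusted p = 0.0283, edgeR). None was called without control 72 or control 73, and 1 without control 71 or mutant 78. The median of the list was −0.05.

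Of 16 other inhibitors of RAS and ERK, 2 were called higher and 1 lower (14.8% of all tested genes in either direction), with a median log2 fold change of −0.0023. *Rasa2*, which switches RAS off, rose (0.55, adjusted p = 0.0178), as did *Cblb*, a ubiquitin ligase for receptor kinases (0.73, adjusted p = 0.0484), and *Pea15a*, which keeps ERK in the cytoplasm, fell (−0.47, adjusted p = 0.0151, edgeR). The count of 3 was 1 without control 73, 5 without mutant 74 and 6 by limma-voom. Beside *Dusp4*, none of 9 other MAPK phosphatases passed the edgeR threshold, with 1 at an unadjusted p under 0.05 and 0 by DESeq2 or limma-voom, and their median was 0.25. Of 13 other ETS factors none passed by edgeR (2 at an unadjusted p under 0.05), 1 by DESeq2 and 3 by limma-voom, with a median of 0.23, and 1 was called without control 72 or 76 or mutant 75 or 79.

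Other transcriptional outputs of ERK were called in both directions. Of 15 tested, 1 was higher and 3 were lower (7.82% and 7.02% of all tested genes), and the median log2 fold change was 0.06. An unadjusted p under 0.05 by edgeR was found for 9, beside 4709 of all 14990 tested genes. The immediate early gene *Ier2* fell from 760 ± 277 to 245 ± 91.1 CPM (log2 fold change −1.63, adjusted p = 0.00431, edgeR), although control 76 (350 CPM) lay within the mutant range of 184 to 403 CPM. *Ccnd1*, cyclin D1, fell as well (−1.23, adjusted p = 0.0438, edgeR), although control 76 (28.7 CPM) lay within the mutant range of 19.0 to 50.9 CPM. *Ccnd1* is also one of the 9 markers of committed progenitors and renal vesicles summed above, of which 3 were called lower and none had a fitted value above 0. The receptor gene *Epha2* fell (−1.13, adjusted p = 0.0191), while *Emp1*, a membrane protein gene, rose from 6.79 ± 4.11 to 21.2 ± 8.94 CPM (1.65, adjusted p = 0.0202) and was highest in mutants 75 and 74, at 35.4 and 23.7 CPM, the libraries with most stroma markers. The count of 4 was 1 without control 72 and 2 without control 73, 7 by DESeq2 and 8 by limma-voom. Among genes not called by edgeR but with an unadjusted p under 0.05, *Fos* (log2 fold change −1.71) and *Egr1* (−1.65) were lower. *Phlda1* (0.67), *Myc* (0.53) and *Epha4* (0.44) were higher. Control 76 was the lowest control for both. Its 85.9 CPM of *Fos* lay below every mutant library (96.7 to 340 CPM). Its 257 CPM of *Egr1* lay within the mutant range of 191 to 555 CPM.

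Upstream of the cascade, none of 11 adaptors and RAS exchange factors passed by edgeR (3 at an unadjusted p under 0.05) or DESeq2, 3 passed by limma-voom and 1 without mutant 74, with a median of 0.25. Of 12 FGF and GDNF ligands and receptors none passed by edgeR (4 at an unadjusted p under 0.05), 3 by DESeq2 and 4 by limma-voom, with a median of −0.17. Leaving out mutant 74, mutant 77 or control 76 gave 3, 2 and 1 of them. The 4 with an unadjusted p under 0.05 by edgeR were *Fgfr3* (log2 fold change −1.29), *Fgf8* (−1.11), *Fgf1* (−0.63) and *Fgfr1* (0.33). The paper lists *Fgf8* among downregulated genes, and here its adjusted p was 0.0540 (edgeR), with overlapping libraries.

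Of 14 other receptor tyrosine kinases, 4 rose and 2 fell (7.82% and 7.02% of all tested genes). The 4 with the largest changes were *Pdgfra* (log2 fold change 3.66, adjusted p = 0.00623), *Ddr2* (2.32, adjusted p = 0.00987), *Egfr* (1.34, adjusted p = 0.0291) and *Erbb2* (−0.96, adjusted p = 0.0364, edgeR). *Pdgfra*, the receptor for PDGF and also one of the stroma markers summed above, had 4.14 ± 2.24 CPM in control and 52.4 ± 38.4 CPM in mutant cells, with 118 CPM in mutant 75. *Ddr2*, a collagen receptor, was highest in mutants 75 and 74, at 14.9 and 12.9 CPM, and *Egfr*, the EGF receptor, in mutant 75, at 15.1 CPM. The part of stromal cells in these values and in those of *Emp1* was not tested. The count of 6 was 3 without control 71, 72 or 73 or mutant 75 or 78.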

How the data were processed

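RNA-seq libraries of sorted SIX2 progenitors were compared between Six2-Qpc+/- (4 control samples) and Six2-Qpc-/- mice (5 mutant samples). Per the labels, cDNA was amplified from low-input RNA with poly(A) selection and libraries were not strand specific. The authors counted reads per gene, and the deposited read counts of all 26858 genes were used without further normalization by the authors. STAR, DESeq2 and the build mm10 are named in the submitters' processing notes; the counter and annotation are not given in the sources used here. The table also holds 9 FPKM columns, a mean per genotype, and the authors' fold changes and p-values, none of which were used.

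The edgeR package 4.0.16 (R 4.3.3) was applied to the counts (filterByExpr on genotype, TMM, robust quasi-likelihood test), and the script was tested on simulated data. Standard errors (SE) were derived from the fold change and the F statistic. Levels per kilobase use the gene length given in the table, and coordinates (GRCm38) are those of the table. The depth of 21040536 to 23986458 reads per library makes counting error small for all members but *Spry2*. Every pair of libraries differed by more than sampling noise. Shares within a family were compared by 2-sided exact permutation tests, a comparison added after the data were seen.

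Alternatives were RLE and upper-quartile normalization, DESeq2 1.42.0, 2 other filters on low counts, limma-voom with sample quality weights (limma 3.58.1), 1 surrogate variable (sva 3.50.0), Y-linked expression as covariate, and each library left out. Leaving out mutants 74 and 75 and keeping only libraries below 1 CPM of Y-linked reads were added after seeing the data. The members and lists were chosen with earlier results of these data known. Named genes are all members, *Uqcrq*, up to 4 called genes of each further list by size of change, and the 3 genes most like the members' mean. Some marker genes, *Mapk3*, and the ERK outputs and FGF and GDNF genes not called but with an unadjusted p under 0.05, are also named. *Spry3* was not analysed here. Figures were drawn with Python 3.11.15 and matplotlib 3.10.9.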

Additional observations from a re-analysis of the deposited data

How the results depend on the processing

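The number of feedback genes called was 1 by edgeR, 3 by DESeq2 and by limma-voom with sample quality weights, 1 to 2 with each library left out, and 0 in the libraries below 1 CPM of Y-linked reads, a subset of 6. Over all genes tested, 2225 were called by edgeR, 4868 by limma-voom, 1046 to 3136 with each library left out and 90 in that subset, where fewer libraries were compared. The log2 fold change of *Dusp4* was 0.99 to 1.41 over 19 alternatives and passed the threshold in 18. Among members that were not called, *Spry1* turned to −0.039 with 1 surrogate variable. With each library left out, *Spred2* ranged from −0.051 (without mutant 74) to 0.19 and *Etv4* from −0.21 to 0.063 (without control 76), and without mutants 74 and 75 *Etv4* was 0.043. The cause was not tested. The difference in the *Etv5* share of PEA3 reads was 4.99 to 7.55 percentage points with each library left out. Its genotypes did not overlap with all libraries kept, and leaving a library out cannot bring about an overlap. The difference in the *Dusp4* share was 7.77 to 11 points with each library left out, with exact permutation p from 0.0286 to 0.0571. *Spry2*, *Spred1*, *Spry4*, *Dusp6* and *Etv5* kept fitted values above 0 and *Etv1* below 0 under each alternative run. No paired analysis was possible because the genotypes share no replicate number in the labels. With 37 to 77 reads per library, *Spry2* is the member most limited by depth. No group of libraries of a member held a value far from the others by Dixon's ratio, among 20 groups of 4 or 5 libraries, of which chance would give about 1.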
